A study of Mus musculus with 50 samples.

Results

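The genes of the core circadian clock were examined in mouse kidney, liver and skin fibroblasts, library by library. The 10 genes *Arntl*, *Clock*, *Npas2*, *Cry1*, *Per1*, *Per2*, *Per3*, *Dbp*, *Nr1d1* and *Nr1d2* were taken by symbol from the 24984 genes of the count files, and all 10 were found and passed the filter on low counts in every comparison. RNA-seq covered C57BL/6 mice that were untreated and young (2.5 months) or old (23 to 25 months), with 4 libraries each of young kidney, old kidney, young liver and old liver. It also covered both organs from mice 20 to 21 months old given the solvent DMSO or given 3C, with 4 libraries in each of the 4 groups, and skin fibroblasts of C57BL/6 mice given DMSO or 3C, with 3 libraries in each group. The labels carry the term P9 for the fibroblasts and do not explain it, nor what 3C is, its dose or its duration. ATAC-seq, which maps chromatin open to the Tn5 transposase, covered untreated young and old kidney and liver with 3 libraries each. In all there were 38 RNA-seq libraries in 10 groups.

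The circadian clock is a loop of transcription that runs in nearly every cell and sets daily rhythms of metabolism in the liver and of transport in the kidney tubule. BMAL1, the product of *Arntl*, pairs with CLOCK or with its relative NPAS2 and binds E-boxes in the promoters of the *Per* and *Cry* genes, of *Dbp* and of *Nr1d1* and *Nr1d2*. PER and CRY proteins return to inhibit that pair, REV-ERB alpha and REV-ERB beta (*Nr1d1* and *Nr1d2*) repress *Arntl* and *Npas2* through ROR elements, and DBP, a PAR bZIP factor, drives D-box genes. In such a loop *Arntl* and *Npas2* peak when *Dbp* and *Nr1d1* are low and the reverse. A snapshot of these genes thus depends both on how strongly the loop runs and on the hour at which a tissue was caught. The hour of collection is not given in the sources used here. With 1 snapshot for each tissue piece, a difference in level and a difference in phase cannot be told apart.

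The start regions of 4 members are printed here because they hold matches to E-box or D-box elements, through which the loop is known to act. The windows of *Arntl*, *Npas2* and *Dbp*, searched in the same way, held 0 matches and are not printed. They are the bases just before the RefSeq start on GRCm38.p6, without annotated exon bases, 5′ to 3′ on the gene's strand, and the *Per1* window lies in an intron of a longer *Per1* transcript. All motifs were searched on both strands. Capitals mark the E-box CACGTG, its known variant with the letters AACGTG, the D-box spelled TTATGTAA or, as another form, TTATGCAA, and the core of the ROR element, AGGTCA, which reads as TGACCT from the opposite strand. None of the marked motifs overlaps another.
Per1, chr11:69098699-69098947, + strand: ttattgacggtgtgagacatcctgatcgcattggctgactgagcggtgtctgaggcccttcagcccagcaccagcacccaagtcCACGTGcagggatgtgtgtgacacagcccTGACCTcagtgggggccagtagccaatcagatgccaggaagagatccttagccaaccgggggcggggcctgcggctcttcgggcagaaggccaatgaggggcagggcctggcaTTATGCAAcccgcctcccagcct
Per3, chr4:151044666-151044915, - strand: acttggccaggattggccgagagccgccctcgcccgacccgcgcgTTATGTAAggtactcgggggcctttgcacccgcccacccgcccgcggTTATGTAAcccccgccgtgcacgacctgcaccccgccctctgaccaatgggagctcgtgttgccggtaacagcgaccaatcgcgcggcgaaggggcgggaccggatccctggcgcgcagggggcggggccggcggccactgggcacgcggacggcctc
Cry1, chr10:85185065-85185304, - strand: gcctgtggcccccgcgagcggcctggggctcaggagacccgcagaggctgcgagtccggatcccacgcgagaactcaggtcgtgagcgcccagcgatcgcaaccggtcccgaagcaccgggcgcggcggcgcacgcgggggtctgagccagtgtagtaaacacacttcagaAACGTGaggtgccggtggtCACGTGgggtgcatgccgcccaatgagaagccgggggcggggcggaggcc
Nr1d1, chr11:98775378-98775627, - strand: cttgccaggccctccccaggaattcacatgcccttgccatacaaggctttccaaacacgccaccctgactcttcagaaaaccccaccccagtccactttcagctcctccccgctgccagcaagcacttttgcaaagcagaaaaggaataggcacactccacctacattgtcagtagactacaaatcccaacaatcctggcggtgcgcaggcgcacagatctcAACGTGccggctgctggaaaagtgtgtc

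Counted from the base next to the start, the E-box of *Per1* lay 161 to 166 bases before it and its D-box 17 to 24 bases before it. *Per3* held 2 D-boxes, at 151 to 158 and 198 to 205 bases, *Cry1* an E-box at 55 to 60 and a variant at 74 to 79, and *Nr1d1* a variant at 23 to 28. Of the 10 members 9 had an entry in the RefSeq promoter table, with 13 starts in all. Within 250 bases before the start, on either strand, the E-box occurred in *Cry1* and *Per1* and in 6.02% of 32817 mouse promoters, the variant in *Cry1* and *Nr1d1* and in 3.85%, the D-box in *Per1* and *Per3* and in 1.5%, and the AGGTCA core in *Clock*, *Per1* and *Nr1d2* and in 14%. These matches describe letters and not bound sites. An ATAC-seq peak overlapped the 250-base window of *Per3*, *Cry1* and *Nr1d1* in all 6 kidney and all 6 liver libraries, and that of *Per1* in 5 of 6 kidney and 4 of 6 liver libraries.

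The total was 14.2 to 43.7 M counts per library. Levels are given as CPM (counts scaled to a common library size) on a single scale for all libraries. Libraries of the DMSO and 3C mice were handled differently before counting from those of untreated mice, so the 2 series were set side by side and not tested against each other. Kidney tubule markers summed to 8625 to 26310 CPM in kidney and to at most 23.23 CPM in liver, hepatocyte markers to 88840 to 321300 CPM in liver and fibroblast markers to 12850 to 17520 CPM in fibroblasts, as the labels had it. In old kidney, hepatocyte markers reached 2520 CPM in replicate 2. In liver 3C replicate 4, kidney tubule markers stood at 23.23 CPM.

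Of the activators, *Arntl* (chromosome 7, 113207465 to 113314126) had 13.5 to 21.8 CPM in young kidney, 15.7 to 20.8 CPM in old kidney, 26.5 to 49.2 CPM in young liver and 38.5 to 49.6 CPM in old liver. In fibroblasts *Arntl* had 13.3 to 17 CPM with DMSO and 11.7 to 13.7 CPM with 3C. Kidney and liver did not overlap in untreated mice, and kidney and fibroblasts did. *Clock* (chromosome 5, 76209868 to 76304792) ranged from 26.6 CPM in old kidney to 88.9 CPM in young liver and stood at 17.8 to 22.8 CPM in fibroblasts. *Npas2* (chromosome 1, 39193731 to 39363236), which replaces CLOCK in some tissues, was scarcer, with 4.72 to 11.3 CPM in untreated kidney and 3.25 to 21.5 CPM in untreated liver.

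Among the inhibitors, *Per1* (chromosome 11, 69095217 to 69109960) had the highest mean level per kilobase of the 3 *Per* genes in all 10 groups. It had 32.1 to 41.1 CPM in untreated kidney and 9.53 to 28.6 CPM in untreated liver. *Per2* (chromosome 1, 91415982 to 91459324) had 4.51 to 7.08 CPM in untreated kidney and 3.31 to 11.9 CPM in untreated liver, and *Per3* (chromosome 4, 151003652 to 151044665) had 2.50 to 8.01 CPM and 0.970 to 3.19 CPM. *Cry1* (chromosome 10, 85131700 to 85185064), whose protein is the strongest repressor of the loop, had 3.18 to 6.72 CPM in untreated kidney and 11.3 to 29.8 CPM in untreated liver, without overlap.

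*Nr1d1* (chromosome 11, 98767932 to 98775333) and *Nr1d2* (chromosome 14, 18204054 to 18239127) encode the REV-ERB repressors. Per kilobase of exon, *Nr1d1* was the highest of the 10 genes in 8 of 10 groups, with 18.3 ± 2.1 CPM per kb (SD, n = 4) in young kidney and 24.7 ± 7.8 CPM per kb (SD, n = 4) in young liver. *Per1* was highest in kidney DMSO (12.6 ± 2.5 CPM per kb, SD, n = 4), where *Nr1d1* followed at 10.5 ± 6 CPM per kb, a gap smaller than the SD. *Dbp* (chromosome 7, 45705088 to 45710203) was highest in fibroblasts with 3C, at 13.8 ± 1.3 CPM per kb (SD, n = 3) against 12.8 ± 2 for *Nr1d1*, again within the SD. At the other end, *Per3* was lowest per kilobase in young liver, at 0.186 ± 0.084 CPM per kb (SD, n = 4), and *Per2* in fibroblasts with DMSO, at 0.243 ± 0.078 CPM per kb (SD, n = 3). Because reads were counted without strand, 539 exon bases (18%) of *Dbp* are shared with *Sphk2* and 263 (8.55%) of *Nr1d1* with *Thra*, which lie on the opposite strands, and their reads cannot be told apart there.

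**Figure D1:**
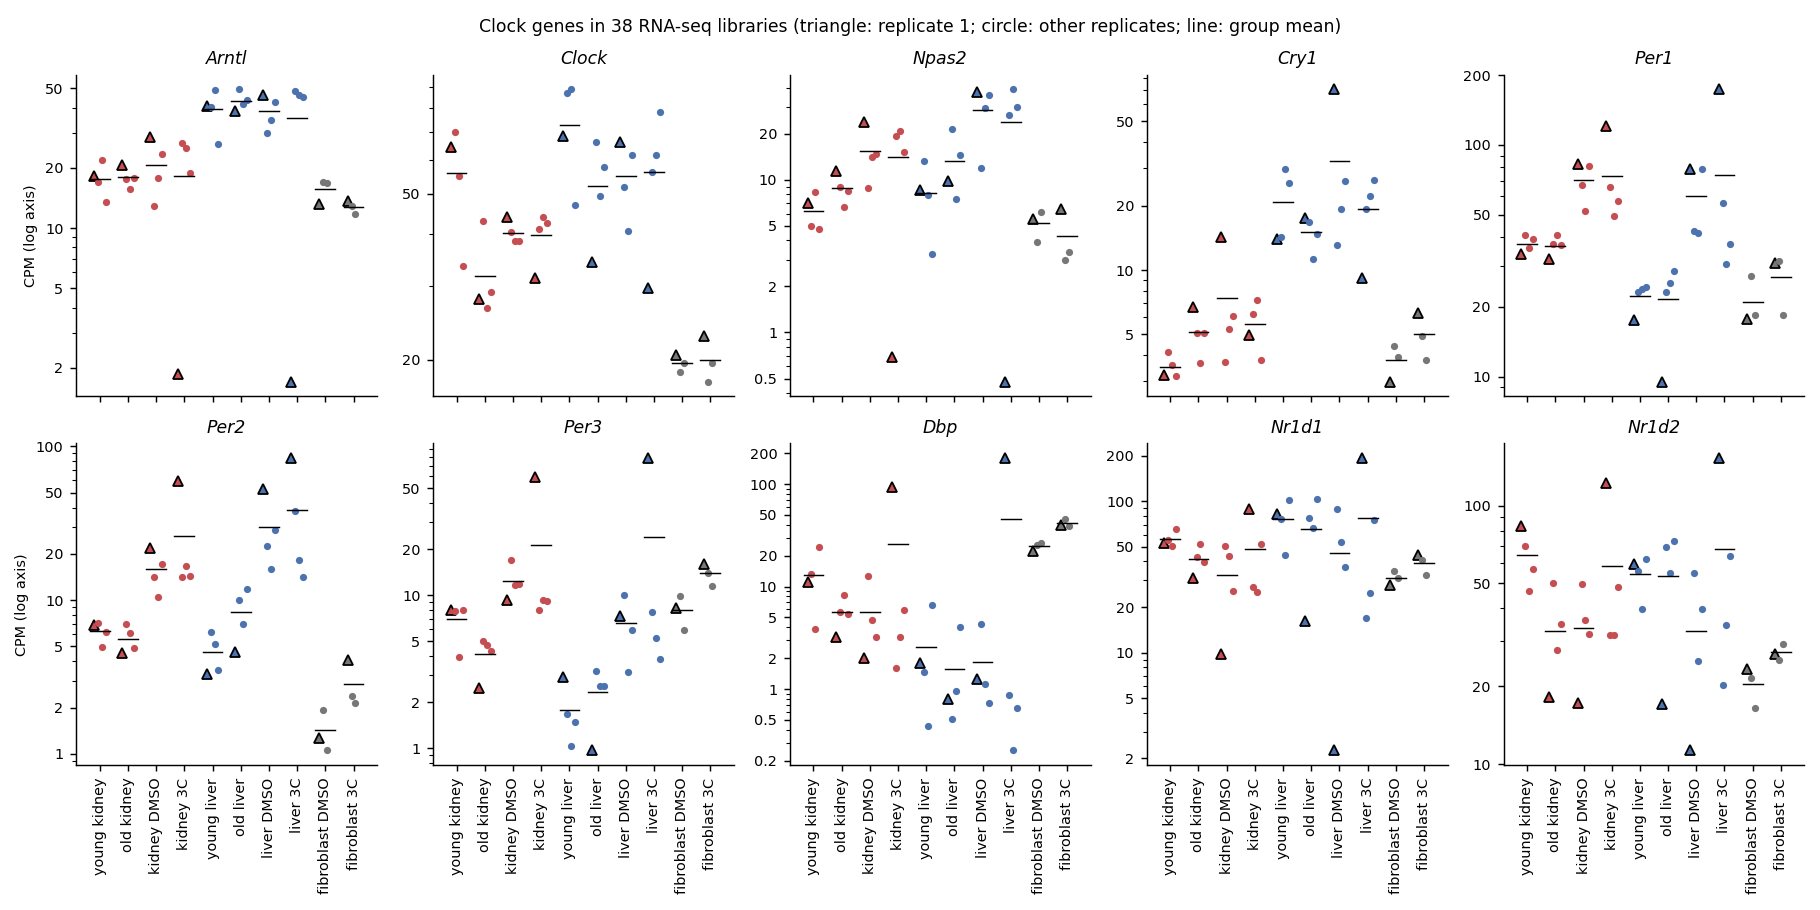
CPM of each of the 10 clock genes (log axis) in every RNA-seq library, grouped by tissue and treatment; each point is 1 library and triangles mark replicate 1. Replicate 1 of kidney 3C and liver 3C stands far from the other libraries, with *Arntl* at 1.86 and 1.70 CPM and *Dbp* at 94.1 and 180 CPM.

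The comparisons of the DMSO and 3C groups kept all libraries, and 2 of these libraries stood apart. Kidney 3C replicate 1 and liver 3C replicate 1 carried the clock genes in a state that no other kidney or liver library showed. *Dbp* had 94.1, 1.6, 3.22 and 5.89 CPM in the 4 kidney 3C libraries and 180, 0.876, 0.251 and 0.652 CPM in the 4 liver 3C libraries. The liver values rest on 2642, 13, 3 and 8 counts. Both replicate 1 libraries were thus high in *Dbp*, and the other 6 were within or below the range of the DMSO libraries (2.02 to 12.7 CPM in kidney, 0.725 to 4.31 CPM in liver).

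*Arntl* and *Npas2* went the other way in the same 2 libraries. *Arntl* had 1.86, 26.7, 25.3 and 18.9 CPM in kidney 3C and 1.70, 48.8, 46.5 and 45.2 CPM in liver 3C. *Npas2* had 0.689, 19.3, 20.9 and 15.2 CPM in kidney 3C and 0.477, 26.7, 39.1 and 29.7 CPM in liver 3C, from 17, 565, 552 and 480 counts and from 7, 396, 467 and 364 counts. Replicate 1 was the lowest library of its tissue for both genes, in both tissues.

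*Per3*, the D-box gene shown above, had 59.1 CPM in kidney 3C replicate 1 against 7.98 to 9.25 CPM in the other 3 libraries of its group. In liver 3C it had 78.9 CPM in replicate 1 against 3.83 to 7.81 CPM. *Per2* had 59.4 and 84.0 CPM in these 2 libraries, against 14.1 to 16.7 and 14.1 to 38 CPM in the other libraries of the 2 groups. *Per1* (121 and 174 CPM), *Nr1d1* (89.1 and 193 CPM) and *Nr1d2* (122 and 153 CPM) were higher in these 2 libraries than in every other library of the same tissue. *Clock* had 31.4 and 29.8 CPM, the lowest of the DMSO and 3C libraries of each tissue, and *Cry1* had 4.98 and 9.19 CPM, the latter the lowest of these livers.

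How far these libraries lay outside the others was compared with all genes. In liver 3C replicate 1, 7 members lay over 2-fold outside the range of the other 7 DMSO and 3C liver libraries, *Dbp*, *Nr1d1*, *Nr1d2*, *Per1* and *Per3* above and *Arntl* and *Npas2* below, where 1.04% of 13042 genes did so. In kidney 3C replicate 1 it was 6 members, *Dbp*, *Nr1d2*, *Per2* and *Per3* above and *Arntl* and *Npas2* below, where 0.461% of 14974 genes did so. In every other library of the kidney and liver groups this count was 2 members or fewer. Over all genes, old liver replicate 1 (2.81%, with 2 members) and old liver replicate 3 (1.49%, with 0 members) had larger shares, against the other untreated livers. Of the genes tested in both tissues, 32 lay over 2-fold outside in kidney 3C replicate 1 and 113 in liver 3C replicate 1, and 10 did so in both in the same direction (31.2% and 8.85%), with 0 in opposite directions. These 10 were the members *Arntl*, *Npas2*, *Dbp*, *Per3* and *Nr1d2*, with *Bhlhe41*, *Tef*, *Usp2*, *Wee1* and *Loxl4*. *Tef*, the PAR bZIP relative of *Dbp*, had 320 CPM in kidney 3C replicate 1 (87.8 to 130 CPM in the other 7 libraries) and 380 CPM in liver 3C replicate 1 (51.8 to 86.1 CPM). *Ciart*, an inhibitor of the CLOCK and BMAL1 pair, had 11.2 CPM in kidney 3C replicate 1 and 0.664 to 1.36 CPM in the other 7.

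Other gene lists were read in the same 2 libraries. Of the hepatocyte, kidney tubule, fibroblast, macrophage and B and plasma cell markers, 0 lay over 2-fold outside the other libraries in either. The immediate early genes gave 0 as well. Of the feeding and fasting genes, 2 of 13 were above in kidney 3C replicate 1, *Angptl4* (79.6 CPM against 13.1 to 39.5) among them, and 1 of 15 was below in liver 3C replicate 1, *Pnpla3* (21.7 CPM against 55.3 to 387). Of 11 glucocorticoid-responsive genes, 0 lay outside in kidney 3C replicate 1, and in liver 3C replicate 1 *Per1* was above and the cell cycle inhibitor *Cdkn1a* below (3.75 CPM against 13.1 to 59.2). Whether these 2 libraries came from the same mouse, or were collected at another hour, cannot be told from the labels.

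The DMSO libraries numbered replicate 1 stood apart in another direction and by less. *Nr1d1* had 9.81, 50.4, 43.6 and 25.7 CPM in kidney DMSO and 2.26, 89.3, 53.6 and 36.9 CPM in liver DMSO, lowest in replicate 1 of both. *Cry1* had 14.3, 3.69, 5.31 and 6.12 CPM in kidney DMSO and 70.6, 13.1, 19.3 and 26.3 CPM in liver DMSO, highest in replicate 1 of both. Over 2-fold outside the other 7 libraries were 1 member (*Nr1d1*) in kidney DMSO replicate 1, where 0.194% of genes did so, and 2 members (*Nr1d1* and *Cry1*) in liver DMSO replicate 1, where 0.399% did so. In kidney DMSO replicate 1 the immediate early genes *Egr1*, *Egr2*, *Fos*, *Fosb* and *Nr4a1* also lay above the others, for example *Fos* at 19.1 CPM against 2.19 to 4.88 CPM, and their part in the clock values was not tested.

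**Figure D2:**
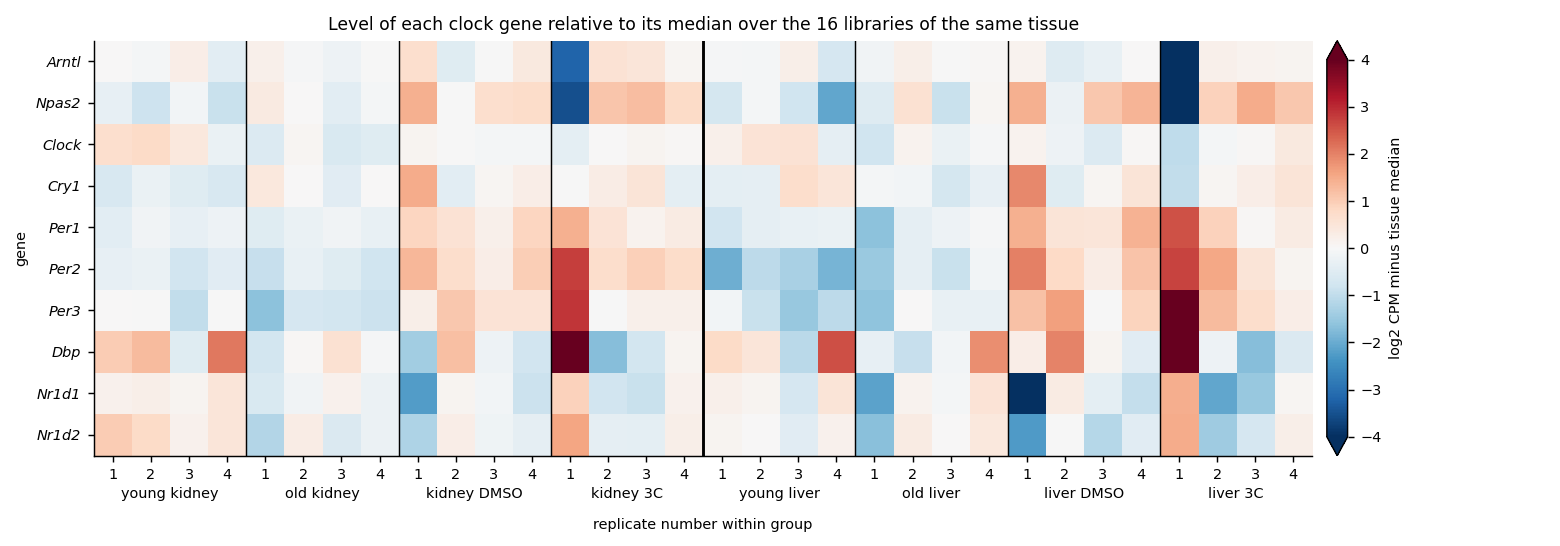
Log2 CPM of each clock gene minus its median over the 16 libraries of the same tissue, for the 32 kidney and liver libraries in columns (replicate number and group on the x axis); red is above and blue below the median, and the color scale stops at 4. Kidney 3C replicate 1 and liver 3C replicate 1 show *Arntl* and *Npas2* in blue with the *Per* genes and *Dbp* in red, and DMSO replicate 1 shows *Nr1d1* and *Nr1d2* in blue in both tissues.

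The first comparison asked whether the clock genes differ between young and old kidney. *Dbp* had 11.1, 13.2, 3.86 and 24.2 CPM in young and 3.24, 5.62, 8.34 and 5.34 CPM in old kidney, and the groups overlapped. *Nr1d2* had 83.5, 69.7, 46.7 and 56.8 CPM in young and 18.2, 50.3, 27.6 and 34.9 CPM in old kidney, and only old replicate 2 reached into the range of young kidney. *Clock* had 64.5, 70.2, 55.1 and 33.6 CPM in young and 28.0, 43.0, 26.6 and 29.1 CPM in old kidney. The log2 fold changes of old over young, from edgeR's quasi-likelihood fit, were -1.16 with a standard error of 0.47 for *Dbp* (adjusted p = 0.132), -0.89 (SE 0.30) for *Nr1d2* (adjusted p = 0.0839) and -0.74 (SE 0.24) for *Clock* (adjusted p = 0.0711).

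Calls required an adjusted p under 0.05 (Benjamini-Hochberg, over all genes tested) together with a fold above 2 or below 0.5. By that rule 0 of the 10 members were called in old kidney, against 6.08% of 14495 genes. At an unadjusted p under 0.05 stood 7 members, against 4360 of the 14495 genes. The median log2 fold change of the members was -0.24, against 0.02 for all genes. Nothing in the labels says that the libraries of a group came from separate mice, so that the p values measure the spread between these samples. The other 4 of these 7 were *Per3* (-0.68, SE 0.29), *Nr1d1* (-0.39, SE 0.16), *Cry1* (0.60, SE 0.22) and *Npas2* (0.56, SE 0.23), with edgeR adjusted p values of 0.104 to 0.15. *Arntl* (0.09, SE 0.16), *Per1* (0.04, SE 0.11) and *Per2* (-0.10, SE 0.20) differed by less than 2 standard errors. Single libraries decided the calls here, since *Nr1d2* was called without old kidney replicate 2, the library with hepatocyte transcripts (log2 fold change -1.19, edgeR adjusted p = 0.0119), and *Dbp* without young kidney replicate 3 (-1.48, edgeR adjusted p = 0.0457).

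Transcripts of immune cells moved with age in the same kidneys. Macrophage markers summed to 93.06 to 109.9 CPM in young and 448.4 to 868.7 CPM in old kidney, B and plasma cell markers to 4.156 to 8.576 and 256.9 to 370.7 CPM, and 5 of 5 and 4 of 4 of these markers were called higher. Their part in the clock values was not tested. In whole tissue, fewer cells of a type and less RNA per cell cannot be told apart.

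In liver, 0 of 10 members were called with age, against 2.13% of 12537 genes. *Per2* had 3.31, 6.24, 5.21 and 3.51 CPM in young and 4.59, 9.97, 7.01 and 11.9 CPM in old liver, with overlap, and its log2 fold change of 0.89 (SE 0.34) had the smallest edgeR adjusted p of the members, 0.234. It was the only member at an unadjusted p under 0.05. *Nr1d1* had 82.1, 76.1, 44.1 and 102 CPM in young and 16.1, 77.8, 66.5 and 104 CPM in old liver, so that old replicate 1 lay below the young range and the other 3 within or just above it. *Nr1d2* had 17.1 CPM in that library and 54.8 to 72.6 CPM in the other 3 old livers. Old replicate 1 also stood apart over all genes, with 2.81% of 12537 genes over 2-fold outside the other untreated livers. For *Dbp* the fold change was -0.69 (SE 0.81), for *Npas2* 0.71 (SE 0.41), for *Cry1* -0.45 (SE 0.28) and for *Clock* -0.47 (SE 0.25). For *Per3* it was 0.40 (SE 0.45), and *Arntl* (0.17, SE 0.20), *Per1* (-0.02, SE 0.29), *Nr1d1* (-0.19, SE 0.44) and *Nr1d2* (-0.01, SE 0.36) lay within 1 standard error of 0. B and plasma cell markers (4 of 4) and macrophage markers (2 of 5) were called higher in old liver, from 3.836 to 4.977 CPM to 25.93 to 113.7 CPM and from 537 to 820.1 CPM to 884.9 to 1776 CPM in sum.

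An interaction term tested whether the age difference of each clock gene was the same in both organs. By the adjusted p, 0 of 10 members differed, against 1.72% of 15036 genes, with 3 members at an unadjusted p under 0.05. The largest difference was that of *Per3* (1.13, SE 0.53, edgeR adjusted p = 0.35), whose fold change was 0.40 in liver and -0.68 in kidney. *Cry1* differed by -1.0 (SE 0.36, edgeR adjusted p = 0.195) and *Per2* by 1.04 (SE 0.40, edgeR adjusted p = 0.236). *Nr1d2* differed by 0.95 (SE 0.51), and the other 6 members by -0.01 (*Per1*) to 0.53 (*Dbp*), each by less than 1 standard error.

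The second question was what 3C changed against DMSO. In kidney 0 of 10 members were called, where 0% of 14974 genes were called by edgeR, 1786 genes stood at an unadjusted p under 0.05 and DESeq2 called 5 genes with 0 members among them. In liver 0 of 10 members were called, where 0% of 13042 genes were called by edgeR, 436 stood at an unadjusted p under 0.05 and DESeq2 called 2 with 0 members among them. The difference between the tissues was called for 0 of 10 members and 0% of 15526 genes by edgeR and for 0 by DESeq2, with 554 genes at an unadjusted p under 0.05 in edgeR and 644 in DESeq2. The differences between the tissues ran from -0.35 (SE 0.67) for *Cry1* to 2.41 (SE 2.22) for *Dbp*. In kidney, fibroblast markers summed to 263.9 to 340.9 CPM with DMSO and 142.2 to 237.8 CPM with 3C and macrophage markers to 298.9 to 343.1 and 195.2 to 292 CPM, both without overlap, and their part in the clock values was not tested.

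The fold changes of several members turned with replicate 1. *Dbp* had a log2 fold change of 3C over DMSO of 2.18 (SE 1.12, edgeR adjusted p = 0.486) in kidney and 4.60 (SE 1.70, edgeR adjusted p = 0.9996) in liver. Without replicate 1 of both groups it was -0.96 (SE 0.54, edgeR adjusted p = 0.505) in kidney and -1.77 (SE 0.72, edgeR adjusted p = 0.999) in liver. *Per3* went from 0.73 (SE 0.59) to -0.64 (SE 0.15, edgeR adjusted p = 0.184) in kidney and from 1.84 (SE 0.85) to -0.20 (SE 0.41) in liver. *Arntl* went from -0.20 (SE 0.52) to 0.35 (SE 0.20) in kidney and from -0.14 (SE 0.61) to 0.38 (SE 0.15) in liver, and *Npas2* from -0.16 (SE 0.59) to 0.52 (SE 0.18) in kidney and from -0.29 (SE 0.71) to 0.30 (SE 0.33) in liver. *Per3*, *Npas2*, *Arntl* and *Dbp* thus had the same sign in both tissues with replicate 1 and, reversed, without it. Without replicate 1 the members given below also agreed in sign between the tissues, and 0 of 10 members were called in either tissue. With all libraries, 0 members in kidney and 1 in liver (*Dbp*) stood at an unadjusted p under 0.05. *Clock* had -0.04 (SE 0.10) in kidney and 0.01 (SE 0.25) in liver, *Cry1* -0.44 (SE 0.36) and -0.78 (SE 0.47), *Per1* 0.02 (SE 0.24) and 0.29 (SE 0.49), and *Per2* 0.67 (SE 0.44) and 0.35 (SE 0.52). Without replicate 1 of both groups *Cry1* turned to 0.15 (SE 0.26) and 0.20 (SE 0.24), *Per1* to -0.24 (SE 0.15) and -0.40 (SE 0.28) and *Clock* in kidney to 0.09 (SE 0.06), with 0.33 (SE 0.19) in liver, and *Per2* was 0.08 (SE 0.16) and 0.06 (SE 0.34). *Nr1d1* had 0.55 (SE 0.48) and 0.76 (SE 0.86) and *Nr1d2* 0.76 (SE 0.43) and 1.04 (SE 0.58), which without replicate 1 became -0.21 (SE 0.30) and -0.63 (SE 0.50) for *Nr1d1* and -0.10 (SE 0.20) and -0.02 (SE 0.39) for *Nr1d2*.

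**Figure D3:**
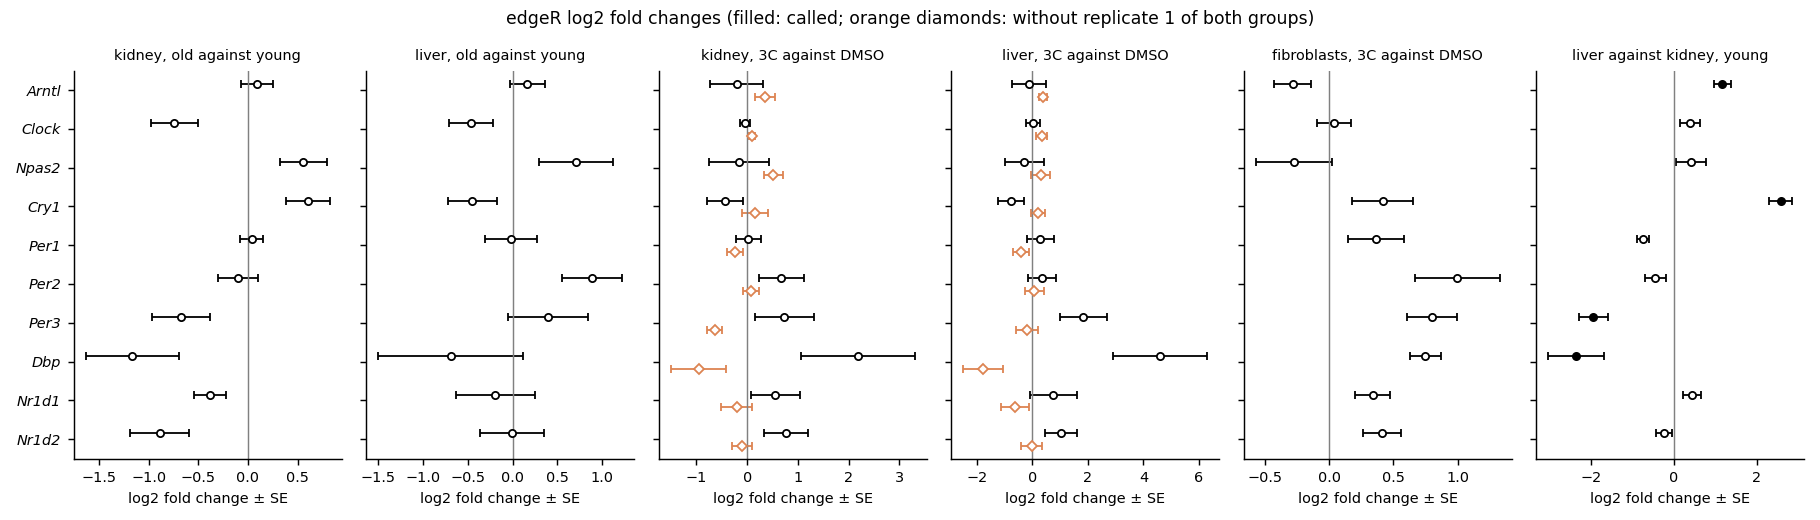
Log2 fold change with its standard error from edgeR for each clock gene in 6 comparisons (the x axes differ between panels); filled points were called, and orange diamonds are the fits without replicate 1 of both groups. Filled points occur only for liver against kidney in young mice (*Arntl*, *Cry1*, *Per3* and *Dbp*), and in the 3C panels *Dbp* lies on opposite sides of 0 with and without replicate 1.

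In skin fibroblasts *Dbp* and *Per3* were higher with 3C than with DMSO in every library. *Dbp* had 22.5, 25.4 and 26.6 CPM with DMSO and 39.7, 45.8 and 38.8 CPM with 3C, without overlap. *Per3* had 8.24, 9.83 and 5.94 CPM with DMSO and 16.1, 14 and 11.6 CPM with 3C, without overlap. Both rose by the adjusted p and missed the fold threshold, with a log2 fold change of 0.75 (SE 0.12, edgeR adjusted p = 0.00772) for *Dbp* and 0.80 (SE 0.19, edgeR adjusted p = 0.0458) for *Per3*. The adjusted p alone was met by 2 of 10 members and 4.22% of 13449 genes. With the fold threshold 0 of 10 members were called, against 1.87%.

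*Per2* had 1.28, 1.93 and 1.05 CPM with DMSO and 4.07, 2.37 and 2.13 CPM with 3C, also without overlap (log2 fold change 1.0, SE 0.33, edgeR adjusted p = 0.12). *Nr1d1* (0.34, SE 0.14), *Nr1d2* (0.41, SE 0.15), *Per1* (0.36, SE 0.22) and *Cry1* (0.41, SE 0.23) had positive fold changes and *Arntl* (-0.29, SE 0.14) and *Npas2* (-0.27, SE 0.30) negative ones, with edgeR adjusted p values of 0.147 to 0.651. In all, 8 of 10 members were positive, with a median of 0.39 against 0.01 for all genes. Of the wider clock genes, *Tef* rose by 0.56 (edgeR adjusted p = 0.0241) and *Nfil3*, which competes with DBP and TEF for D-boxes, fell by 0.84 (edgeR adjusted p = 0.00935), both under the fold threshold. *Clock* did not pass (0.04, SE 0.13, edgeR adjusted p = 0.907). Of the markers of other cells, the macrophage genes summed to 200.6 to 264.5 CPM with DMSO and 75.46 to 118.2 CPM with 3C, with *Lyz2* called lower (-1.35), and the part of this in the clock values was not tested.

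Kidney and liver were compared within young, old, DMSO and 3C mice, with the libraries that also entered the comparisons of age and of 3C, and *Cry1* was higher in liver each time. In young mice *Cry1* had 3.21, 4.13, 3.57 and 3.18 CPM in kidney and 13.9, 14.4, 29.8 and 25.5 CPM in liver, a log2 fold change of liver over kidney of 2.57 (SE 0.27, edgeR adjusted p = 4.86e-06). *Arntl* was higher in liver by 1.16 (SE 0.20, edgeR adjusted p = 0.000261). *Per3* had 8.01, 7.90, 3.98 and 8.0 CPM in kidney and 2.93, 1.68, 1.04 and 1.49 CPM in liver, and was lower in liver with -1.94 (SE 0.35, edgeR adjusted p = 0.000385). *Dbp* had 1.81, 1.47, 0.434 and 6.58 CPM in young liver and was lower in liver with -2.35 (SE 0.67, edgeR adjusted p = 0.00849), although the highest liver exceeded the lowest kidney (3.86 CPM). *Per1* was lower in liver with -0.74 (SE 0.14, edgeR adjusted p = 0.000683), short of the fold threshold. *Clock* (0.39, SE 0.24), *Npas2* (0.41, SE 0.35), *Nr1d1* (0.44, SE 0.22), *Per2* (-0.45, SE 0.25) and *Nr1d2* (-0.23, SE 0.20) did not pass. Called in young mice were thus 4 of 10 members, 2 higher and 2 lower in liver, where 42.6% of 14057 genes were called.

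In old mice *Arntl* (1.28, SE 0.15, edgeR adjusted p = 5.47e-05), *Cry1* (1.56, SE 0.24, edgeR adjusted p = 0.000349) and *Dbp* (-1.83, SE 0.61, edgeR adjusted p = 0.0272) were called, 3 of 10 members against 40.7% of 14578 genes. *Clock* (0.72, SE 0.23) and *Per1* (-0.76, SE 0.29) passed by the adjusted p alone, and *Npas2* (0.60, SE 0.33), *Per2* (0.58, SE 0.31), *Per3* (-0.83, SE 0.38), *Nr1d1* (0.67, SE 0.44) and *Nr1d2* (0.71, SE 0.43) did not. With DMSO *Cry1* (2.10, SE 0.52, edgeR adjusted p = 0.00335) and *Dbp* (-1.62, SE 0.63, edgeR adjusted p = 0.0368) were called, 2 of 10 against 42.3% of 14981 genes. *Arntl* (0.86, SE 0.22), *Clock* (0.43, SE 0.14), *Npas2* (0.86, SE 0.34), *Per2* (0.89, SE 0.33) and *Per3* (-0.93, SE 0.29) passed there by the adjusted p alone, and *Per1* (-0.25, SE 0.23), *Nr1d1* (0.46, SE 0.71) and *Nr1d2* (-0.07, SE 0.41) did not. With 3C only *Cry1* was called (1.77, SE 0.31, edgeR adjusted p = 0.000409), 1 of 10 against 42.1% of 14881 genes. *Clock* (0.47, SE 0.24), *Npas2* (0.73, SE 0.91), *Per2* (0.56, SE 0.61), *Nr1d1* (0.66, SE 0.69), *Nr1d2* (0.20, SE 0.61) and *Per1* (0.0029, SE 0.51) did not pass. Without replicate 1 of both groups, *Dbp* with 3C went from 0.81 (SE 1.66) to -2.57 (SE 0.59, edgeR adjusted p = 0.00451) and was called, *Per3* from 0.17 (SE 0.98) to -0.65 (SE 0.25, edgeR adjusted p = 0.0441) and *Arntl* from 0.92 (SE 0.82) to 0.97 (SE 0.14, edgeR adjusted p = 0.00028). *Dbp* was thus lower in liver in young, old and DMSO mice with all libraries, and with 3C when replicate 1 was left out. The *Dbp* calls in old and DMSO mice were lost when single libraries were left out, in old mice without old kidney replicate 3 or old liver replicate 1, 2 or 3 (fold changes of -1.51 to -1.65), and with DMSO without kidney DMSO replicate 2 (-0.85) or liver DMSO replicate 1, 3 or 4 (-1.33 to -1.44).

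In the wider clock list 7 of 20 genes tested were called between liver and kidney of young mice, against 42.6% of all genes. Among them, higher in liver were *Nfil3* (log2 fold change 2.15), *Fbxl21* (1.91), *Cry2* (1.22) and *Timeless* (1.05), and lower *Bhlhe41* (-3.64) and *Tef* (-1.22). *Nfil3*, *Fbxl21* and *Cry2* were called higher in liver in old, DMSO and 3C mice as well, *Timeless* with DMSO and 3C, and *Rora* in old mice only (1.09). *Bhlhe41* was called lower in old (-2.35) and DMSO (-2.17) mice. Among genes known as outputs of the clock, 12 of 16 were called in young mice, against the same 42.6% of all genes, in a list that includes genes specific to kidney or liver. *Usp2* (-4.99), *Wee1* (-2.86), *Sgk1* (-2.87), *Scnn1a* (-1.95), *Pdk4* (-1.24), and the kidney transport and water genes *Slc9a3* (-12.82) and *Avpr2* (-8.85) were lower in liver, while *Cyp7a1* (14.41), which limits bile acid synthesis, *Ces2a* (16), *Avpr1a* (2.64), *Tsc22d3* (2.22) and *Por* (1.04) were higher. Of these, *Usp2*, *Sgk1*, *Slc9a3*, *Avpr2*, *Cyp7a1*, *Ces2a*, *Avpr1a* and *Tsc22d3* were called in the same direction in old, DMSO and 3C mice. *Wee1* was called lower in old (-2.33) and DMSO (-1.94) mice, *Scnn1a* lower in old (-2.32), *Tspan4* higher in old (1.37), *Por* higher with DMSO (1.08) and 3C (1.29), and *Alas1*, of haem synthesis, higher with DMSO (1.24) and 3C (1.39). Folds above 7 on the log2 scale rest on genes with almost no counts in 1 tissue and depend on the prior count. With age or 3C, 0 wider clock genes and 1 output gene were called, *Pdk4* lower in old kidney (-1.25, edgeR adjusted p = 0.0271), and between the age effects of the tissues *Sgk1* differed by 0.84.

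To place each library on 1 axis, the mean log2 CPM of *Dbp*, *Nr1d1*, *Nr1d2*, *Per1*, *Per2* and *Per3* minus that of *Arntl*, *Clock*, *Npas2* and *Cry1* was taken as a clock index. *Cry1* stands in the second group because its transcript peaks late in the cycle. A high index is a library rich in the first group and poor in the second. The index was 0.73, 0.81, -0.01 and 1.37 in young kidney, -0.62, 0.23, 0.63 and 0.14 in old kidney, -1.15, -1.39, -2.16 and -0.43 in young liver and -2.2, -1.51, -0.90 and -0.64 in old liver. Every untreated kidney library lay above every untreated liver library except that old kidney replicate 1 (-0.62) lay below young liver replicate 4 (-0.43), and the group means ± SD (n = 4) were 0.73 ± 0.57, 0.09 ± 0.52, -1.28 ± 0.72 and -1.31 ± 0.70. The age groups overlapped in both tissues.

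In the DMSO and 3C series the index was -0.92, 1.30, 0.34 and 0.15 in kidney DMSO, 4.46, -0.36, -0.30 and 0.58 in kidney 3C, -2.40, 0.13, -1.28 and -1.32 in liver DMSO and 5.04, -1.37, -2.02 and -1.55 in liver 3C. Replicate 1 of kidney 3C and of liver 3C was far above the other libraries, whose highest value was 1.37. Replicate 1 of the DMSO groups was the lowest of its group in both tissues. With it, the kidney 3C group had a mean of 1.10 ± 2.28 (SD, n = 4) and without it -0.03 ± 0.52 (SD, n = 3). Liver 3C had 0.02 ± 3.36 (SD, n = 4) and without it -1.65 ± 0.34 (SD, n = 3). Fibroblasts had 0.50 ± 0.28 with DMSO and 1.15 ± 0.16 with 3C (SD, n = 3), without overlap.

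The gap between kidney and liver was then read pair by pair. Taken between libraries with the same replicate number, kidney minus liver was 1.87, 2.2, 2.15 and 1.80 in young mice (mean 2.01 ± 0.20, SD, n = 4) and 1.58, 1.74, 1.52 and 0.78 in old mice (1.40 ± 0.43). It was 1.47, 1.17, 1.62 and 1.47 with DMSO (1.43 ± 0.19) and -0.58, 1.01, 1.73 and 2.12 with 3C (1.07 ± 1.19). Kidney exceeded liver in 4 of 4 pairs of young, old and DMSO mice and in 3 of 4 pairs with 3C, the exception being replicate 1. With DMSO this depends on the numbering, since the tissues overlapped, with kidney DMSO replicate 1 (-0.92) below liver DMSO replicate 2 (0.13). Over the libraries of young kidney, the index ranged from -0.01 to 1.37 and over those of young liver from -2.16 to -0.43, and the lowest (replicate 3) and the highest (replicate 4) carried the same number in both tissues. The labels do not say that equal numbers mark the same mouse. Over all genes, same-numbered libraries correlated at -0.408 to 0.428 in old and 0.0175 to 0.187 in DMSO mice, so the data do not bear out the pairs there.

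**Figure D4:**
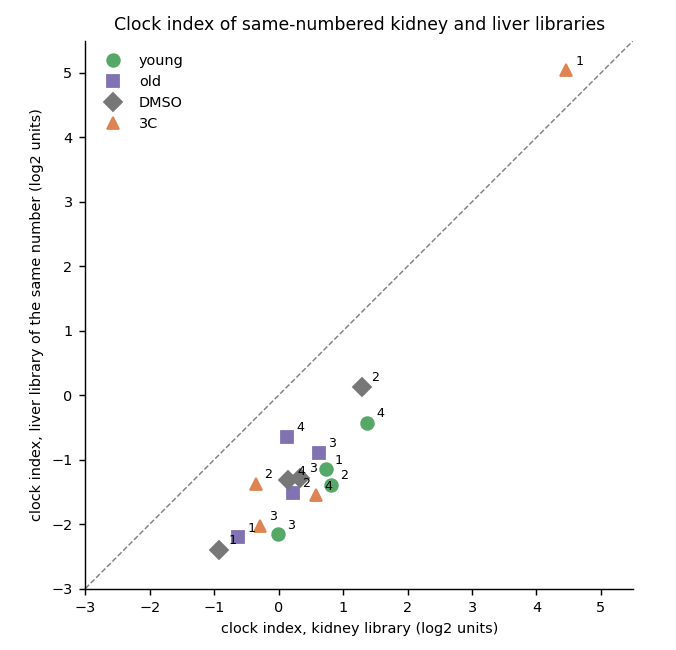
Clock index (log2 units, *Dbp*, *Nr1d* and *Per* genes minus *Arntl*, *Clock*, *Npas2* and *Cry1*) of each kidney library on the x axis against the liver library with the same replicate number on the y axis, by group, with the line of equal values. The 3C pair of replicate 1 lies alone at 4.46 and 5.04, and all other pairs lie below the line.

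Each gene was also followed from kidney to liver over the pairs with the same number, as deviations from the group means. Old and DMSO pairs were included, although the data did not bear out the numbering there. Replicate 1 of 3C lay far from all other pairs and replicate 1 of DMSO moved the other way by less, so the values over the other 14 pairs come first. The group means still held replicate 1, which shifts the other libraries of its group, so r over the 14 pairs is not free of it. Pearson's r was 0.93 for *Arntl* (permutation p = 0.0228 after adjustment over the 10 genes; Spearman's rho 0.85, p = 0.0677), 0.86 for *Nr1d1* (p = 0.0228; rho 0.79, p = 0.0425), 0.84 for *Nr1d2* (p = 0.0192; rho 0.73, p = 0.0403), 0.81 for *Per1* (p = 0.0192; rho 0.84, p = 0.0403) and 0.81 for *Per3* (p = 0.0286; rho 0.82, p = 0.0403). For *Dbp* it was 0.75 (permutation p = 0.0427; rho 0.74, p = 0.0677), for *Clock* 0.69 (p = 0.0467; rho 0.65, p = 0.0677) and for *Npas2* 0.79 (p = 0.107; rho 0.67, p = 0.212). *Per2* (r = 0.44, permutation p = 0.186) and *Cry1* (r = 0.45, permutation p = 0.184) did not pass. In the 8 untreated pairs alone r was 0.20 for *Per2*, 0.26 for *Cry1*, 0.27 for *Npas2* and 0.69 to 0.86 for the other 7 genes, with adjusted permutation p values of 0.108 to 0.691, so that none passed there. In the 8 DMSO and 3C pairs, replicate 1 included, r was 0.75 to 0.99. By Pearson's r 7 genes passed over the 14 pairs, and by both measures *Nr1d1*, *Nr1d2*, *Per1* and *Per3*. The share of all genes that pass the same test was not computed, so whether 7 of 10 is more than that share cannot be told. With the 2 pairs farthest from the kidney median left out of all 16, *Clock* gave 0.65 (permutation p = 0.0856) and no longer passed, and the other 6 gave 0.73 to 0.88.

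Within a tissue, *Arntl* ran against *Dbp*. Over 14 kidney libraries without replicate 1 of DMSO and 3C, r of the deviations was -0.90 (rho -0.94, permutation p = 2e-04 for both after adjustment over 4 relations). With the 2 libraries farthest from the median of *Arntl* left out of all 16 it was -0.87 (permutation p = 8e-05). For both values, and for those over 14 libraries below, the group means still held the libraries left out, so r is not free of them. For *Arntl* and *Dbp* r was -0.97 in the 8 untreated libraries (permutation p = 0.0103, rho -0.95) and -0.97 in the 8 DMSO and 3C libraries (permutation p = 0.00376, rho -0.93). *Arntl* and *Nr1d1* in kidney gave -0.81 over the 14 libraries (permutation p = 0.00052, rho -0.80), -0.83 in the untreated series (permutation p = 0.00704, rho -0.95) and -0.73 in the other (permutation p = 0.00463, rho -0.79). In kidney both relations held within each series. The DMSO and 3C series, in kidney as in liver below, includes replicate 1, and no value was taken in that series without it.

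In liver *Arntl* and *Dbp* gave -0.80 over the 14 libraries (permutation p = 0.0149, rho -0.82), -0.97 in the DMSO and 3C series (permutation p = 0.0381, rho -0.86, p = 0.112) and -0.75 in the untreated series (permutation p = 0.084, rho -0.60), a value of like size that did not pass at 8 libraries. *Arntl* and *Nr1d1* in liver gave -0.48 (permutation p = 0.153, rho -0.37), and -0.07 in the untreated series (permutation p = 0.781). *Dbp* in young kidney shows the relation plainly, since replicate 3 had the least *Dbp* (3.86 CPM) and the most *Arntl* (21.8 CPM) and replicate 4 the most *Dbp* (24.2 CPM) and the least *Arntl* (13.5 CPM). In young liver the same 2 numbers stood at the ends, with 0.434 and 49.2 CPM in replicate 3 and 6.58 and 26.5 CPM in replicate 4.

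The spread between libraries of a group was then set against that of all genes tested in that tissue. In kidney 3C and liver 3C, 8 of 10 members had an SD of log2 CPM above the 95th percentile of all genes, with a median SD of 0.96 and 1.42 against 0.14 and 0.25 for all genes. Without replicate 1 it was 2 and 3 members. In kidney DMSO and liver DMSO it was 5 and 5 members (median SD 0.54 and 0.74 against 0.13 and 0.24), and 1 and 3 without replicate 1. In untreated groups it was 1 member in young kidney (*Dbp*, SD 1.09), 0 in old kidney, 1 in young liver (*Dbp*, SD 1.5) and 2 in old liver (*Dbp*, SD 1.21, and *Nr1d1*, SD 1.19, the latter with old replicate 1 at 16.1 CPM). In both fibroblast groups it was 0. *Clock* was the steadiest member of kidney DMSO, with an SD of 0.09 on the log2 scale, while *Dbp* and *Nr1d1* there had 1.11 and 1.06.

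Genes whose deviations were most like those of *Arntl*, *Dbp* and *Per1* were sought among 11647 genes over the 32 kidney and liver libraries, as a description, since all share these libraries and replicate 1 weighs heavily. Closest to *Arntl* were *Npas2* (r = 0.97), the lysyl oxidase gene *Loxl4* (0.91), *Leo1* (0.91), *Ppard* (0.88) and *Ypel2* (0.87), and most opposed were *Dbp* (-0.93), *Tef* (-0.87), *Per3* (-0.85), *Coq10b* (-0.80) and *Tbc1d10a* (-0.79). Without replicate 1 of DMSO and 3C, over 28 libraries, *Npas2* (0.90) and *Dbp* (-0.84) still led. The group means still held replicate 1, so genes that moved together in it keep a shared shift. The rankings over 28 libraries, that of *Per1* included, are therefore no check against replicate 1. Closest to *Dbp* were *Tef* (0.90), *Per3* (0.86), *Tbc1d10a* (0.83), *Coq10b* (0.74) and *Cplx2* (0.73), and most opposed *Loxl4* (-0.94), *Arntl* (-0.93), *Npas2* (-0.92), *Ppard* (-0.87) and *Slc45a3* (-0.87). Closest to *Per1* were *Per2* (0.86), *Mbd1* (0.82), *Tob2* (0.80), *Tef* (0.80), which was also closest to *Dbp*, and *Mfsd2a* (0.80), with *Commd7* (-0.80), *Tars* (-0.80), *Adprh* (-0.79), *Lrfn3* (-0.78) and *Colgalt2* (-0.78) opposed. Without replicate 1 *Per1* was closest to *Ociad2* (0.81), *Mbd1* (0.79), *Slc25a37* (0.77), *Per2* (0.77) and *Tob2* (0.76).

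Chromatin at the starts of the clock genes was open in both tissues. The value read was the highest fold enrichment over local background among the peaks within 1000 bases of a start. *Nr1d2* had the highest enrichment of the members, 11.3 ± 1.66 (SD, n = 3) in young kidney and 7.44 ± 0.33 (SD, n = 3) in young liver. *Dbp* was at the low end, with 2.49 ± 0.29 (SD, n = 3) in young kidney. In liver *Dbp* had a peak at 2.04 and 1.95 in 2 young libraries and 2.56 and 2.41 in 2 old libraries, and 0 peaks in young replicate 3 and old replicate 2.

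Old kidney exceeded young kidney without overlap at 4 of 10 members, where 16.3% of 13862 genes did so, and lay below at 0, where 8.62% did so. The *Dbp* peaks had 2.70, 2.60 and 2.15 in young and 4.16, 4.0 and 4.05 in old kidney, a ratio of 1.64. Relative to the start their summits lay at -717, -116 and -709 bases in young and at -177, -153 and -141 bases in old kidney, so that different peaks were compared, and within 500 bases of the start the ratio was 1.87. *Arntl* had 5.92, 6.76 and 5.08 against 7.91, 6.83 and 8.53, *Per1* had 3.12, 3.18 and 2.82 against 3.84, 4.65 and 3.88, and *Per2* had 4.66, 2.70 and 3.13 against 5.1, 5.17 and 5.21. For each the exact permutation p was 0.1, the smallest that 3 against 3 libraries allow, so no difference can pass 0.05. In RNA the same 4 genes were not called with age. In liver, 9 members had a peak in all 6 libraries, and old lay below young at 2 of them, where 5.89% of 12386 genes did so, and above at 0, where 8.24% did so. *Npas2* had 4.31, 5.28 and 4.51 in young and 2.68, 2.82 and 3.23 in old liver (exact permutation p = 0.1), a ratio of 0.619. The value of 5.28 came from another peak, with its summit at -1237 bases from the nearest start, and within 500 bases the ratio was 0.705. At a −log10 q of at least 5 *Npas2* could not be compared. *Arntl* had 4.73, 4.76 and 5.21 against 4.22, 4.71 and 4.53, with 4.73 and 4.71 as the nearest values. The log2 ratio of old to young over members had a median of 0.13 in kidney and 0.21 in liver, against 0.04 and 0.05 over all genes.

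**Figure D5:**
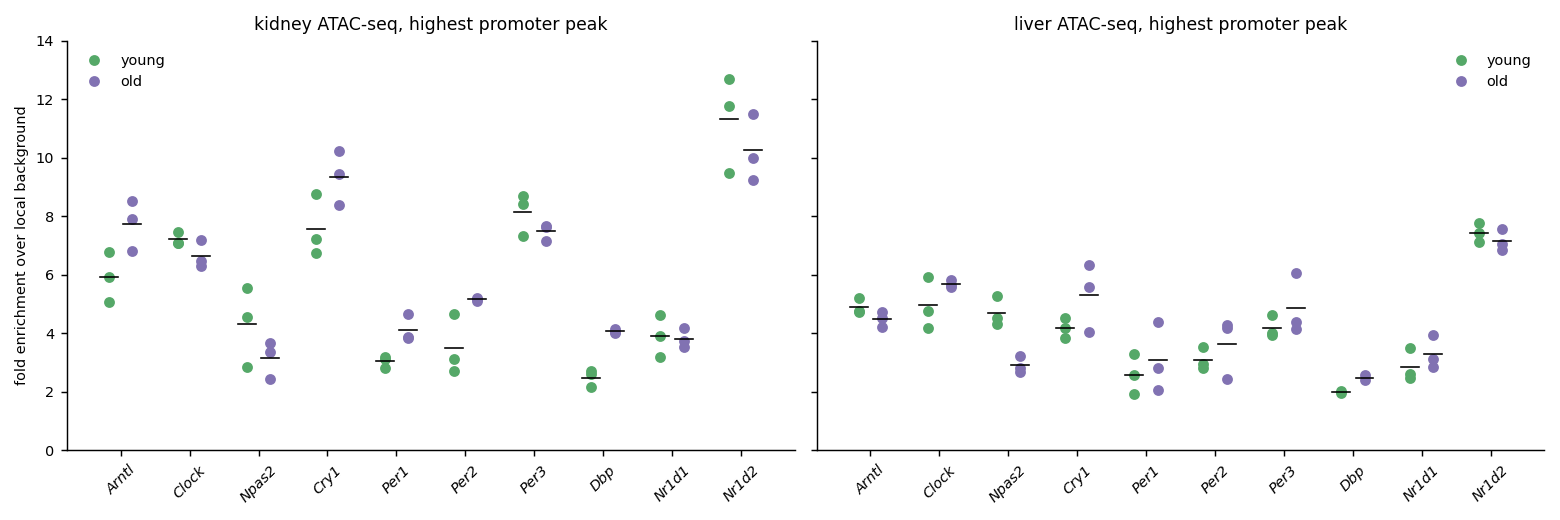
Fold enrichment of the highest ATAC-seq peak within 1000 bases of a start of each clock gene in young and old kidney and liver; each point is 1 library, 3 in each group, and *Dbp* lacks a point for 1 young and 1 old liver library without a peak. In kidney the old libraries lie above the young ones at *Arntl*, *Per1*, *Per2* and *Dbp*, and in liver they lie below at *Arntl* and *Npas2*.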

How the data were processed

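RNA-seq covered 38 libraries in 10 groups and ATAC-seq 12 libraries in 4 groups, 50 samples in all, grouped by the labels. The RNA-seq files hold read counts per gene that the authors made from trimmed reads (Trimmomatic 0.39) aligned to mm10 with HISAT2 2.2.1 and counted without strand by HTSeq 0.12.4, as deposited and not normalized. The ATAC-seq peak files hold the fold enrichment and the −log10 p and q values that the authors' MACS2 calls gave for each library separately after alignment with Bowtie2 2.3.5.1.

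Counts were scaled by TMM over 16502 of 24984 genes. Comparisons used the quasi-likelihood test of edgeR 4.0.16 in R 4.3.3 on genes kept by filterByExpr with a minimum count of 10, with Benjamini-Hochberg adjustment over all genes tested. DESeq2 1.42.0 was an alternative. The index and the correlations used log2 CPM with a prior count of 2, and permutation tests were two-sided with 100000 draws. Deviations were taken from the means of all libraries of a group, also where libraries were then left out of a correlation. No pair of libraries of a group was a duplicate, since in 54 replicate pairs the chi-square per degree of freedom was at least 6.93. On simulated counts like those of the kidney age comparison (14322 genes) 93.9% of 4-fold changes were called.

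The members and gene lists were chosen with earlier results of these data known. The text names the members, called genes of the wider clock and output lists, the 5 genes most and least correlated with *Arntl*, *Dbp* and *Per1* (without Gm and Rik gene models), and at most 3 called genes of the other lists. Lists of glucocorticoid, immediate early and feeding genes and of markers of other cells were also counted. Some genes of the lists, the wider clock list included, are counted but not reported here by name. Same-numbered kidney and liver libraries correlated over 0.1 in every pair of young (0.15 to 0.547) and 3C mice (0.148 to 0.267), so the numbers were taken to pair those samples, by the data and not by the labels, although young replicate 1 correlated better with another number (0.323) than with its own (0.164), and the members of young replicate 2 gave -0.56 with their own number and 0.455 with another. They did not in old (-0.408 to 0.428) and DMSO mice (0.0175 to 0.187). Alternatives were other scalings, filters and thresholds, a replicate block and the omission of single libraries. Those without replicate 1 of several groups were added after seeing the data.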

Additional observations from a re-analysis of the deposited data

Results flagged for a closer look

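In groups of 4 libraries, the gap of the highest or lowest library to the next was divided by the range of the group, and values above Dixon's 95% limit were picked out. Of 88 groups of values looked at, 10 passed, where chance gives about 1 in 20, and 8 of the 10 were replicate 1 of a 3C group. *Arntl* was lowest there with a ratio of 0.869 in kidney and 0.976 in liver, and *Npas2* with 0.903 in kidney and 0.91 in liver. *Per2* (0.884) and *Per3* (0.926) were highest in kidney 3C replicate 1, and *Dbp* (0.835) and the clock index (0.908) in liver 3C replicate 1. The other 2 were *Per1*, lowest in young liver replicate 1 (0.838), and *Per3*, lowest in young kidney replicate 3 (0.979). The cause was not tested for any of them.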

How the results depend on the processing

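Of the values for single genes under the alternatives 1539 kept their direction and call, 146 changed sign without a call in either fit, 31 gained a call, 9 lost one and 5 reversed with a call. With the replicate number as a block the members called were 0 with age, 3C and in fibroblasts, and 4, 3, 2 and 1 between liver and kidney of young, old, DMSO and 3C mice, so the block changed no member call, while genes called with age went to 139 in liver and 102 between tissues. By the adjusted p alone the members called were 2 in fibroblasts, 5 between tissues of old and 7 of DMSO mice. DESeq2 called 1 member with DMSO. Without replicate 1 of both groups there were 2 members with 3C, and by the adjusted p alone 7 with DMSO and 6 with 3C. There the tissue difference with 3C was -2.57 for *Dbp* and -0.65 for *Per3*, both reversed. Leaving out 1 library each, the members called ranged from 0 to 1 for kidney age, 1 to 6 with DMSO and 1 to 3 with 3C, where *Dbp* ran from -5.38 to 3.64 and *Per3* from -1.88 to 1.42. In old mice *Nr1d1* (1.0) and *Nr1d2* (1.0) were called without old liver replicate 1.

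The index of young kidney without *Cry1* was 0.14, of fibroblasts 0.092 with DMSO and 0.89 with 3C, and 0.80 with 3C without *Npas2*. The means of old kidney (0.09) and kidney DMSO (0.22) changed sign, by less than 1 SD, to -0.34 and -0.23 without *Cry1* and to -0.20 and -0.15 without *Per1*, as did old kidney without *Npas2* (-0.083) and liver 3C (0.02) without *Cry1* (-0.068), *Npas2* (-0.28) or *Per1* (-0.25). Members with a spread above the 95th percentile ranged, leaving out 1 library, from 0 to 1 in young kidney and fibroblasts with 3C, 1 to 2 in young liver, 1 to 3 in old liver, 1 to 6 in kidney DMSO, 2 to 8 in kidney 3C, 3 to 7 in liver DMSO and 3 to 9 in liver 3C. In liver r of *Arntl* and *Dbp* was -0.75 in the untreated series, and r of *Arntl* and *Nr1d1* was -0.069 there, -0.27 without the 2 farthest libraries and -0.48 without replicate 1. Peaks without overlap in liver were 1 at a −log10 q of at least 5, where *Npas2* no longer had a peak in every library, and 2 to 5 leaving out 1 library.

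Of all genes, DESeq2 called 595 (edgeR 267) with age in liver, 745 (258) for age by tissue, 5 (0) with 3C in kidney and 2 (0) in liver. By the adjusted p alone kidney age gave 1669 (882) and fibroblasts 567 (251), and the tissue comparisons 9187 (5987) in young, 10765 (6336) with DMSO and 10431 (6263) with 3C. Leaving out 1 library gave 76 to 444 genes for liver age, 114 to 456 for age by tissue and as few as 118 in fibroblasts. The causes were not tested. Depth limits *Dbp* in liver 3C, where 1 library has 3 counts.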

Other observations

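Other gene lists were counted in the same comparisons. In old against young kidney, where 823 of 14495 genes were called higher, immediate early genes were called higher for 4 of 12 tested (among them *Egr2*, log2 fold change 2.82), glucocorticoid-responsive genes for 3 of 11 (*Mt1* 1.0, *Mt2* 1.90 and *Cdkn1a* 1.12), and *Pck1*, the rate-limiting enzyme of gluconeogenesis, was called lower (-1.59). In old against young liver, where 212 of 12537 genes were called higher, the metallothionein genes *Mt1* (4.24) and *Mt2* (5.62) and *Junb* (1.66) were called higher, and 0 of 15 feeding and fasting genes were called by edgeR. In fibroblasts with 3C *Atf3* was called lower (-1.64), as was *Alb* (-3.13), the 1 hepatocyte marker tested there. Among the marker lists, *Thy1* was the 1 of 5 fibroblast markers called higher in old kidney (1.92). With 3C in kidney and liver, 0 genes of these lists were called by edgeR.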
